A study of Mus musculus with 8 samples.

Results

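Genes that mark Kupffer cells and other macrophages were followed through liver RNA of 5-week-old Stab1 knockout and wild-type mice. The set held 38 of the 19348 genes in the deposited table. Members were taken by symbol, as known markers of resident and recruited macrophages, and each stood on a row of its own. They were arranged by role into 12 resident identity genes, 3 chains of complement C1q, 5 Fc receptor and adaptor genes, 12 genes shared by most macrophages and 6 genes of recruited or lipid-laden macrophages. Liver of Stab1 knockout mice gave 5 libraries and liver of wild-type mice gave 3, all at 5 weeks of age and with no treatment named. The labels used here give no strain, sex or knockout allele, and do not say whether libraries came from separate animals, so every p-value here speaks of variation among the libraries at hand, part of which may be technical.

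Kupffer cells are the macrophages that live inside the liver sinusoids, next to the sinusoidal endothelium. They clear particles, old red cells and lipids from portal blood through scavenger receptors, complement receptors and Fc receptors, and they depend on signalling through the colony stimulating factor 1 receptor and on the transcription factors PU.1 and LXR-alpha. Blood monocytes can enter an injured liver, where they first carry markers such as Ccr2 and later, in steatotic liver, markers such as Trem2 and Gpnmb. Stab1 encodes stabilin-1, a scavenger receptor found on sinusoidal endothelial cells and on some macrophages.

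Libraries held 4.85 to 10.8 M (mega) counted reads. The targeted gene Stab1 was at 51.0 ± 4.52 CPM (SD, n = 3) in wild-type liver and at 1.22 ± 0.378 CPM (SD, n = 5) in the knockouts. CPM is counts per mega-reads, after TMM scaling (trimmed mean of M values) of the library sizes. Knockout library 1 stood apart from the rest. It was the shallowest, held 3 reads of the female-specific RNA Xist and 320 of the Y-linked gene Ddx3y, and had a level of 70890 CPM summed over 6 hepatocyte genes against 109760 to 127530 CPM in knockout libraries 2 to 5 and 142400 to 152940 CPM in the wild type. The other libraries held 4445 to 8222 reads of Xist and 0 to 4 reads of Ddx3y. A male pattern of these genes, not balanced between genotypes, was thus seen only in knockout library 1. Tallies of direction over groups of members, and values that this library moved most, are given with and without it. Tallies over lists of other genes, and the count of genes whose genotypes did not overlap, are given over all libraries only. The hepatocyte gene Alb, which encodes albumin, was at 123190 ± 6418 CPM in wild-type and at 86938 ± 23538 CPM in knockout libraries, so the defining product of liver was abundant in both.

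No macrophage gene passed the test between genotypes. Of the 38 members, 35 had enough reads to be tested, and 0 of them were called by edgeR's quasi-likelihood test at an adjusted p of 0.05, against 28 of 12338 genes tested, or 0.227%. The smallest adjusted p among members was 0.333 (edgeR), for C1qa. An unadjusted p under 0.05 was reached by 4 of 35 members (11.4%), namely C1qa, Clec4f, Tyrobp and Aif1, and by 13.6% of all genes tested. DESeq2's Wald test also called 0 members, against 1.03% of the genes it adjusted, with 3 members and 10.7% of genes at an unadjusted p under 0.05. Without knockout library 1, edgeR called 0.928% of genes and 0 of 36 members. In 0 of the 35 did all knockout libraries lie on 1 side of all wild-type libraries, whereas 6.65% of tested genes had such groups.

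The direction of the fitted values leaned to knockout. Log2 fold changes were above 0 in 26 of 35 members (74.3%) and in 49.1% of all tested genes, with a median of 0.16 over members and -0.01 over all tested genes. The lean was smaller with the library that stood apart left out: without knockout library 1 the share was 21 of 36 members, beside 47.3% of all genes, and the median 0.05. Summed over all 38 members, the level was 1496 CPM in knockout library 1, from 1088.5 to 1463 CPM across knockout libraries 2 to 5 and from 940 to 1203 CPM across the wild-type libraries, so the ranges overlapped. In whole liver RNA a different number of macrophages and a different amount of RNA per macrophage cannot be told apart.

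**Figure D1:**
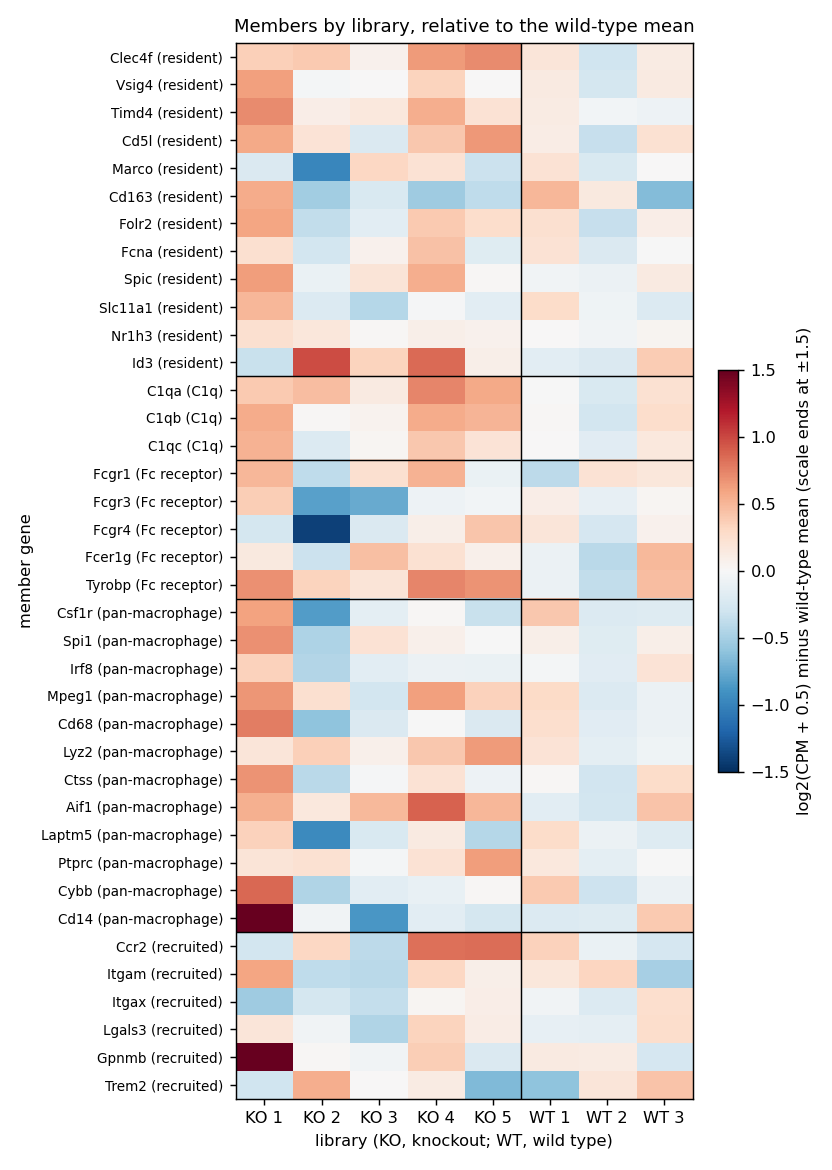
Level of each of the 38 members in each library, as log2(CPM + 0.5) minus the mean of the 3 wild-type libraries (red higher, blue lower), with knockout (KO) libraries on the left and wild-type (WT) libraries on the right. Knockout library 1 is red for most members, knockout library 2 is blue for Csf1r, Laptm5, Fcgr3 and Fcgr4, and no role group has all of its rows red, or all blue, in all 5 knockout libraries.

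Single libraries moved many members at once. Knockout library 1 had the highest level of the 8 libraries for 21 of 38 members. Knockout library 2 had the lowest level of the 8 for 14 members, and wild-type library 2 for 11. No wild-type library held the top value of more than 2 members. The median coefficient of variation that edgeR fitted per gene was 22.9% for members and 20.6% for all tested genes.

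Levels of different genes were compared by RPKM, which scales reads by gene length as well as by library total. In wild-type liver the resident genes Cd5l and Clec4f led, at 66.7 ± 12.7 and 64.2 ± 10.6 RPKM (SD, n = 3), which do not differ beyond their spread. Id3 followed at 54.4 ± 12.6 RPKM, then C1qb at 54.4 ± 9.59, Nr1h3 at 51.1 ± 1.17, C1qa at 48.0 ± 7.14 and C1qc at 46.0 ± 4.91 RPKM, neighbours that likewise overlap. Lyz2, which encodes lysozyme, was at 42.4 ± 5.47 RPKM. The recruited markers stood at the other end, with Lgals3 at 3.64 ± 0.618 RPKM and Trem2, Itgam, Ccr2, Itgax and Gpnmb in the last 5 places, from 0.779 ± 0.408 down to 0.0578 ± 0.0275 RPKM. In knockout liver the same 5 genes were again in the last 5 places, and Clec4f led at 87.3 ± 13.9 RPKM, with Cd5l at 84.8 ± 19.2 RPKM (SD, n = 5). The groups overlapped in the middle of this order, since Lgals3 stood above the resident genes Slc11a1, Cd163 and Spic in both genotypes. The defining Kupffer cell markers Clec4f, Vsig4 and Timd4 stood above all 6 recruited genes in both.

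Resident identity genes include the lectin and scavenger receptors by which Kupffer cells are recognised. Fitted log2 fold changes were positive in 9 of the 12 and negative in 3 (median 0.18), and 0 were called. Without knockout library 1 the tally was the same and the median was 0.07. Clec4f (identifier 51811), a C-type lectin confined to Kupffer cells in the mouse, was at 196, 202, 160, 239 and 251 CPM in knockout libraries 1 to 5 and at 174, 124 and 167 CPM in wild-type libraries 1 to 3. All knockout libraries but library 3 lay above the highest wild-type library. The log2 fold change was 0.44 (SE 0.19, 95% interval 0.02 to 0.85, edgeR adjusted p = 0.356), and 0.45 (SE 0.19, edgeR adjusted p = 0.176) without knockout library 1.

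Timd4 (identifier 276891), a phosphatidylserine receptor of long-lived, embryonically seeded Kupffer cells, was at 21.9, 14.2, 14.7, 19.5 and 15.4 CPM in knockout libraries 1 to 5 and at 14.4, 12.8 and 12.4 CPM in wild-type libraries 1 to 3. Knockout library 2 fell inside the wild-type range and the other knockout libraries lay above it. Its log2 fold change was 0.37 (SE 0.18, interval -0.03 to 0.77, edgeR adjusted p = 0.384), and 0.26 (SE 0.17) without knockout library 1. Cd5l (identifier 11801), a secreted scavenger protein also called AIM, was at 200, 156, 116, 178 and 212 CPM in knockout and at 146, 106 and 159 CPM in wild-type libraries. The groups overlapped, and the log2 fold change was 0.33 (SE 0.22, edgeR adjusted p = 0.481).

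Vsig4 (identifier 278180), a receptor for complement fragments that captures blood-borne bacteria, was at 55.7, 35.4, 36.3, 46.0 and 36.4 CPM in knockout libraries and at 39.8, 30.0 and 39.8 CPM in wild-type libraries. Only knockout libraries 1 and 4 exceeded the wild-type maximum, and the fitted change of 0.20 on the log2 scale (SE 0.19, adjusted p = 0.625 by edgeR) was 0.07 without library 1. Both scavenger receptor genes had fitted values under 0, neither of them called. Marco, a collagenous scavenger receptor, had a log2 fold change of -0.14 (SE 0.28), and Cd163, the receptor for haptoglobin-bound haemoglobin, of -0.26 (SE 0.32), or -0.51 (SE 0.25) without knockout library 1. Cd163 was at 19.4 CPM in knockout library 1 against 8.79 to 11.0 CPM in the other knockout libraries, and its wild-type libraries were spread from 8.11 to 18.6 CPM.

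The other resident genes were not called either. Folr2, a folate receptor, was at 16.3 ± 4.42 against 14.5 ± 3.01 CPM, and Fcna, which encodes the lectin ficolin A, at 53.9 ± 11.1 against 51.3 ± 7.78 CPM. Spic, a transcription factor of iron-recycling macrophages, was at 2.05 ± 0.568 against 1.596 ± 0.180 CPM (log2 fold change 0.34, SE 0.29). Slc11a1, a metal transporter of phagosomes, was at 8.004 ± 2.22 against 8.22 ± 1.51 CPM. Nr1h3, which encodes LXR-alpha and is also active in hepatocytes, had the smallest ratio of highest to lowest library among members (1.22), at 109 ± 6.71 against 100.5 ± 3.33 CPM (log2 fold change 0.12, interval -0.15 to 0.38). Id3, a regulator needed for Kupffer cell development, is expressed by other liver cells too. It ran from 41.1 to 103 CPM across the knockouts and from 44.5 to 67.4 CPM across the wild type. Knockout library 1, the top library for most members, was its lowest. The log2 fold change of Id3 was 0.44 (SE 0.29, edgeR adjusted p = 0.484), the largest of the resident genes. Without knockout library 1 it was 0.58 (SE 0.24, interval 0.05 to 1.11, edgeR adjusted p = 0.166).

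**Figure D2:**
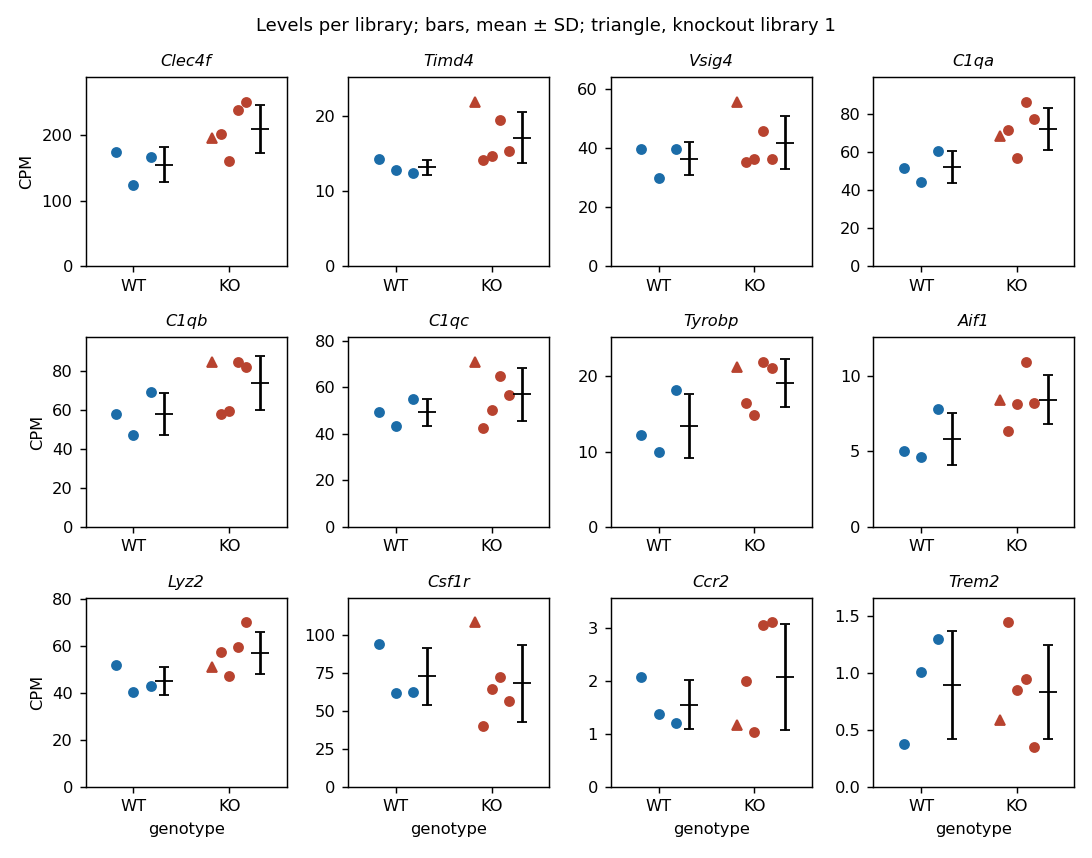
TMM-scaled CPM of 12 members in each wild-type (WT, blue, n = 3) and knockout (KO, red, n = 5) library, with the group mean ± SD as a black bar beside the points and knockout library 1 as a triangle. The ranges of the genotypes overlap in every panel, and the triangle is the highest point for Timd4, Vsig4, C1qb, C1qc and Csf1r but not for Clec4f, Lyz2 or Ccr2.

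C1q is the recognition molecule that starts the classical complement pathway, built from A, B and C chains that tissue macrophages make in quantity. The 3 chain genes stand side by side in the genome, with no other gene in the table between them. C1qa (identifier 12259) was at 68.5, 71.9, 56.8, 86.5 and 77.3 CPM in knockout libraries 1 to 5 and at 51.7, 44.2 and 60.8 CPM in wild-type libraries 1 to 3. Knockout library 3 was inside the wild-type range and the other 4 were above it. Its log2 fold change was 0.47 (SE 0.17, interval 0.09 to 0.84, edgeR adjusted p = 0.333), and 0.48 (edgeR adjusted p = 0.133) without knockout library 1.

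C1qb (identifier 12260) was at 84.7, 58.0, 59.5, 84.6 and 82.2 CPM in knockout and at 58.1, 47.4 and 69.0 CPM in wild-type libraries. Knockout libraries 1, 4 and 5 lay above the wild-type maximum and libraries 2 and 3 did not. The log2 fold change was 0.34 (SE 0.19, edgeR adjusted p = 0.422). C1qc (identifier 12262) was at 70.8, 42.4, 50.2, 64.8 and 56.6 CPM in knockout and at 49.4, 43.4 and 54.9 CPM in wild-type libraries, with knockout library 2 below all wild-type libraries. Its log2 fold change was 0.21 (SE 0.18, edgeR adjusted p = 0.595), and 0.11 (SE 0.17) without knockout library 1. All 3 chains were positive in both fits, with a median of 0.34 over all libraries and 0.28 without that one.

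The balance among the chains was nearly fixed in wild-type liver. Per gene length, C1qa made up 32.3% ± 0.208 of the summed RPKM of the 3 chains, C1qb 36.5% ± 1.16 and C1qc 31.1% ± 1.22 (SD, n = 3). In knockout liver the shares were 35.4% ± 4.05, 36.5% ± 1.78 and 28.2% ± 2.86 (SD, n = 5). Knockout library 2 was the farthest from the wild-type balance, with 41.3% C1qa and 24.8% C1qc, and knockout library 1 had the lowest C1qa share, 30.2%. These shares were not tested.

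Upstream sequences are printed for the C1q genes C1qb and C1qc and for the Kupffer markers Clec4f and Timd4, to show where letters known from macrophage factors occur. They are the 250 bases before the annotated start in RefSeq GRCm38.p6, which the deposited table was not matched to by coordinates, and run 5′ to 3′ on the strand of the gene. C1qb lies at chr4:136886201-136886450 on the minus strand, C1qc at chr4:136892915-136893164 on the minus strand, Clec4f at chr6:83656117-83656366 on the minus strand and Timd4 at chr11:46810549-46810798 on the plus strand. Capitals mark ACTTCCT, the reverse complement of the PU.1 and ETS core AGGAAGT, in C1qb and C1qc, and GTCAGCA, the reverse complement of the MAF recognition core TGCTGAC, in Timd4.
C1qb: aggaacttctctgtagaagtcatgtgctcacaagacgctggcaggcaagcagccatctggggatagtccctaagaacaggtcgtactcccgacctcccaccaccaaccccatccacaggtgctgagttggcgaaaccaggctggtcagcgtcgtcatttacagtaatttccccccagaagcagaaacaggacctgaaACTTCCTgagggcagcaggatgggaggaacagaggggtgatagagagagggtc
C1qc: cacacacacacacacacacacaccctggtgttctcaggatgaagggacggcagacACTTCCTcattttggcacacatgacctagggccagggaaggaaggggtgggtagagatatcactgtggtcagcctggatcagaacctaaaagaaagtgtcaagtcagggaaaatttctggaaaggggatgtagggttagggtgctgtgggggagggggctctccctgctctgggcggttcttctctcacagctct
Clec4f: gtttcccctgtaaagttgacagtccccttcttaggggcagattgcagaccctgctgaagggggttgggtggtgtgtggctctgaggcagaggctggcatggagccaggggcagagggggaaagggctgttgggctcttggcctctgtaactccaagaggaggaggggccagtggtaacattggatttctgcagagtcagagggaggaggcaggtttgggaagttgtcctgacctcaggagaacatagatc
Timd4: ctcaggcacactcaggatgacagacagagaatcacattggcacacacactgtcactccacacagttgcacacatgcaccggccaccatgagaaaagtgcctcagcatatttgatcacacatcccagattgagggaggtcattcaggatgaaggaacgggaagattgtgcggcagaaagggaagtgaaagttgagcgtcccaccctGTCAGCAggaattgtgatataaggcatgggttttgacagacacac
The match in C1qb began 53 bases before the start, that in C1qc 195 bases before and that in Timd4 45 bases before, and the Clec4f stretch held neither motif. Promoter windows of 300 bases (250 before and 50 after the start) were found for 33 of 38 members, 38 windows in all. Some genes have a pair of windows that overlap, so shares are given by gene. AGGAAGT, searched on both strands, was in a window of 10 of the 33 genes (30.3%). It was in a window of 10.7% of all 27025 genes with promoter windows, and of 10.4% of the 9872 tested genes among them. TGCTGAC, also on both strands, was in a window of 3 of the 33 (9.09%), namely Fcgr3, Fcna and Timd4. Its share was 5.28% of all genes with promoter windows and 4.68% of the tested genes among them. The motifs do not overlap in their letters, and a match is a description of the letters only.

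Fc receptors bind antibody-coated particles and signal through adaptors that carry activation motifs. Fitted differences were positive in 3 of the 5 and negative in 2 (median log2 fold change 0.10), and 0 were called. The tally was again 3 and 2 without knockout library 1, with a median of 0.09. Tyrobp (identifier 22177), which encodes the adaptor DAP12, was at 21.3, 16.5, 14.9, 21.9 and 21.1 CPM in knockout libraries and at 12.2, 9.95 and 18.1 CPM in wild-type libraries. Wild-type library 3 overlapped the knockout range and the other wild-type libraries lay below it. Its log2 fold change was 0.51 (SE 0.22, interval 0.02 to 1.004, edgeR adjusted p = 0.356). Fcer1g, which encodes the Fc receptor gamma chain, was at 11.1 ± 2.16 against 10.4 ± 3.48 CPM, with a log2 fold change of 0.10 (SE 0.24).

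The receptor genes themselves were expressed at lower levels. Fcgr1 (identifier 14129), the high-affinity receptor, was at 7.43, 3.79, 6.13, 7.52 and 4.73 CPM in knockout and at 3.78, 5.99 and 5.81 CPM in wild-type libraries (log2 fold change 0.18, SE 0.27, edgeR adjusted p = 0.757). Fcgr3 (identifier 14131), a low-affinity activating receptor, was at 8.02, 3.23, 3.39, 5.72 and 5.89 CPM in knockout and at 6.52, 5.53 and 6.21 CPM in wild-type libraries (log2 fold change -0.24, SE 0.29, edgeR adjusted p = 0.698). Knockout libraries lay on both sides of the wild-type libraries for Fcgr3. Fcgr4, whose gene stands next to Fcgr3, was at 4.64 ± 2.02 against 5.29 ± 0.876 CPM, with its lowest value, 1.67 CPM, in knockout library 2. Fcgr3 has stretches in common with the inhibitory receptor gene Fcgr2b, so its uniquely mapped count is uncertain.

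Genes shared by most macrophages and other myeloid cells had fitted values on both sides of 0. Of the 12, 8 lay above 0 on the log2 scale and 4 lay under it (median 0.12), and 0 were called. Leaving out knockout library 1 turned this around, to 4 above and 8 under 0, with a median of -0.14 and again 0 called. Aif1 (identifier 11629), which encodes the actin-binding protein IBA1, was at 8.41, 6.35, 8.11, 10.9 and 8.19 CPM in knockout and at 5.00, 4.61 and 7.81 CPM in wild-type libraries. Knockout library 2 was below wild-type library 3, and the other 4 knockout libraries exceeded all wild-type libraries. The log2 fold change was 0.53 (SE 0.24, interval 0.005 to 1.06, edgeR adjusted p = 0.363), the largest among tested members.

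Lyz2 (identifier 17105) was at 50.9, 57.3, 47.0, 59.5 and 70.1 CPM in knockout and at 51.7, 40.5 and 42.9 CPM in wild-type libraries. Knockout libraries 2, 4 and 5 exceeded the wild-type maximum (log2 fold change 0.34, SE 0.16, edgeR adjusted p = 0.378). Mouse Lyz1 is nearly identical to Lyz2, so the count of uniquely mapped reads is uncertain. Mpeg1 (identifier 17476), which encodes the pore-forming protein perforin-2, was at 82.0, 61.3, 42.6, 79.5 and 65.8 CPM in knockout and at 63.4, 44.9 and 48.6 CPM in wild-type libraries, with knockout library 3 below all wild-type libraries and knockout libraries 1, 4 and 5 above them (log2 fold change 0.34, SE 0.22, edgeR adjusted p = 0.476). Ptprc, which encodes the leukocyte antigen CD45, was at 15.2 ± 2.72 against 12.7 ± 1.42 CPM.

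Csf1r (identifier 12978), the receptor on which macrophage survival depends, was at 109, 39.8, 64.6, 72.1 and 56.3 CPM in knockout libraries and at 94.4, 61.6 and 62.3 CPM in wild-type libraries. The knockout libraries held both the highest and the lowest value of the 8. The log2 fold change was -0.10 (SE 0.29, interval -0.73 to 0.54, edgeR adjusted p = 0.884), and -0.33 (SE 0.22, edgeR adjusted p = 0.373) without knockout library 1. Spi1, which encodes PU.1, was at 6.73 ± 2.09 against 6.03 ± 0.672 CPM, and Irf8, its partner in myeloid development, at 7.09 ± 1.54 against 7.48 ± 1.05 CPM. Cd68, a lysosomal membrane glycoprotein, was at 8.54 ± 3.59 against 8.49 ± 1.41 CPM, and Laptm5, another lysosomal membrane protein, at 19.7 ± 6.66 against 22.2 ± 4.05 CPM. Ctss, the antigen-processing protease cathepsin S, was at 48.6 ± 14.3 against 45.1 ± 8.94 CPM, and Cybb, the catalytic subunit of the phagocyte NADPH oxidase, at 22.0 ± 8.84 against 20.8 ± 5.44 CPM. Without knockout library 1 the log2 fold change went from -0.02 to -0.28 for Cd68, from 0.06 to -0.21 for Cybb, from 0.10 to -0.08 for Ctss and from 0.14 to -0.03 for Spi1. Cd14, the co-receptor for bacterial lipopolysaccharide, was at 11.7 CPM in knockout library 1 and between 1.41 and 4.11 CPM in the other 7 libraries. Its log2 fold change went from 0.36 (SE 0.61) to -0.40 (SE 0.31) when that library was left out.

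**Figure D3:**
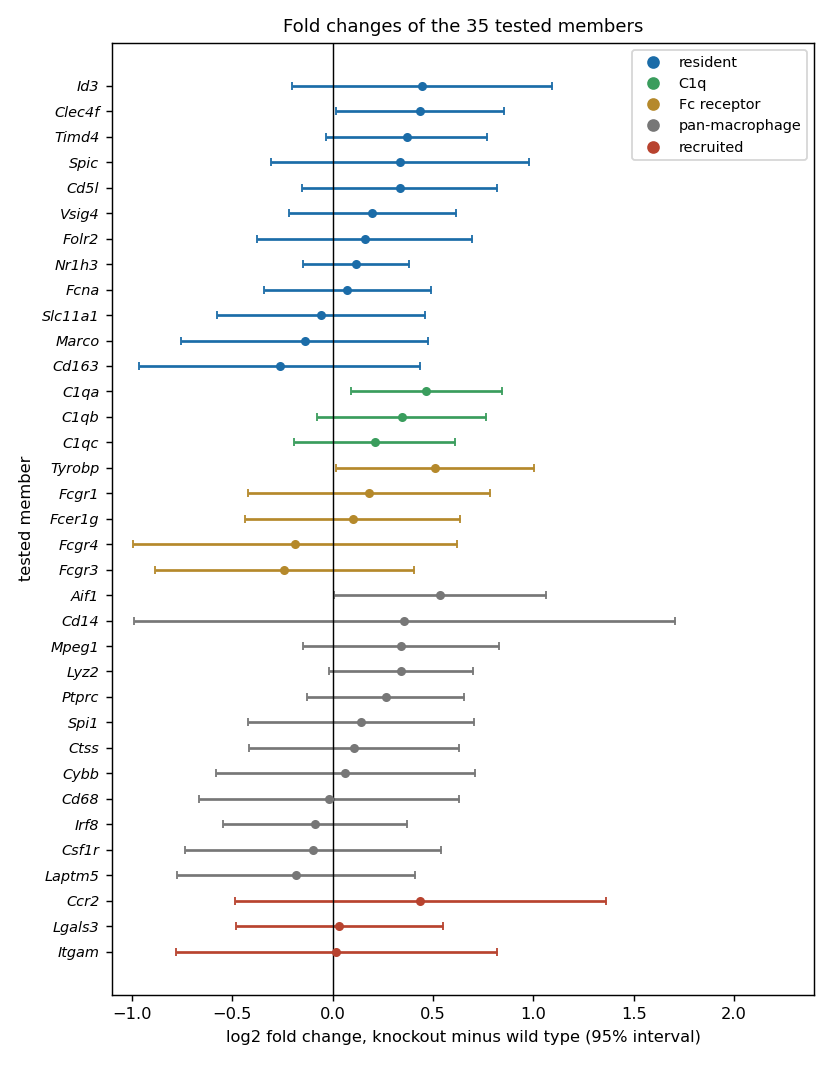
Log2 fold change (knockout minus wild type, edgeR) of the 35 tested members with its 95% interval, coloured by role. Intervals of 4 members, Clec4f, C1qa, Tyrobp and Aif1, lie above 0 before adjustment over all tested genes, all others cross 0, and Cd14 has the widest interval.

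Markers of recruited and lipid-laden macrophages ranged from moderate counts for Lgals3, at 30 to 62 reads per library, to a few reads for Itgax and Gpnmb. Of 6 genes, 3 were tested, all with log2 fold changes above 0 and a median of 0.03, and 0 were called. Without knockout library 1, 4 were tested and 2 of them were positive. Ccr2 (identifier 12772), the chemokine receptor that brings monocytes out of the marrow, was at 1.17, 2.01, 1.04, 3.07 and 3.12 CPM in knockout and at 2.08, 1.38 and 1.20 CPM in wild-type libraries. Knockout libraries 4 and 5 were above and libraries 1 and 3 below all wild-type libraries (log2 fold change 0.44, SE 0.42, interval -0.49 to 1.36, edgeR adjusted p = 0.626). Those levels came from 6 to 29 reads per library.

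Lgals3 (identifier 16854), which encodes galectin-3, was at 5.87, 4.90, 3.58, 6.57 and 5.54 CPM in knockout and at 4.63, 4.61 and 6.21 CPM in wild-type libraries (log2 fold change 0.03, SE 0.23, edgeR adjusted p = 0.954). It was also the only member on the chromosome of Stab1, 61 tested genes away from it. Itgam (identifier 16409), the integrin chain CD11b, was at 3.33, 1.45, 1.41, 2.65 and 2.19 CPM in knockout and at 2.36, 2.67 and 1.30 CPM in wild-type libraries (log2 fold change 0.02, SE 0.36, edgeR adjusted p = 0.986). For both genes the knockout values spanned most of the wild-type range. Trem2 (identifier 83433), a lipid receptor that signals through Tyrobp, held 3, 13, 9, 9 and 3 reads in knockout and 4, 11 and 13 reads in wild-type libraries. Itgax, the integrin chain CD11c, held 4 to 7 reads in wild-type and 1 to 5 reads in knockout libraries. Gpnmb, a glycoprotein of lipid-laden macrophages, held 12 reads in knockout library 1 and 1 to 4 reads in each of the other 7 libraries. Itgax, Gpnmb and Trem2 did not pass the filter on low counts. In a fit with no filter their log2 fold changes were -0.37 (SE 0.50) for Itgax, 1.23 (SE 0.96) for Gpnmb and -0.08 (SE 0.50) for Trem2, and none was called by edgeR.

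Set against each other, resident and recruited genes lay at a distance that overlapped between genotypes. The mean log2 CPM (prior count of 2) of the 12 resident genes exceeded that of the 6 recruited genes by 4.30, 4.15, 4.59, 4.17 and 4.32 in knockout libraries 1 to 5 and by 4.43, 4.03 and 4.28 in wild-type libraries 1 to 3. The knockout values ran past the wild-type range only in library 3. Group means were 4.31 ± 0.17 (SD, n = 5) and 4.25 ± 0.20 (SD, n = 3), a difference of 0.06 that is smaller than either SD. With Slc11a1, Nr1h3 and Id3 left out, since other liver cells express them, the difference was also 0.06. No test was run on these means, since the members were chosen with results of these data known.

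**Figure D4:**
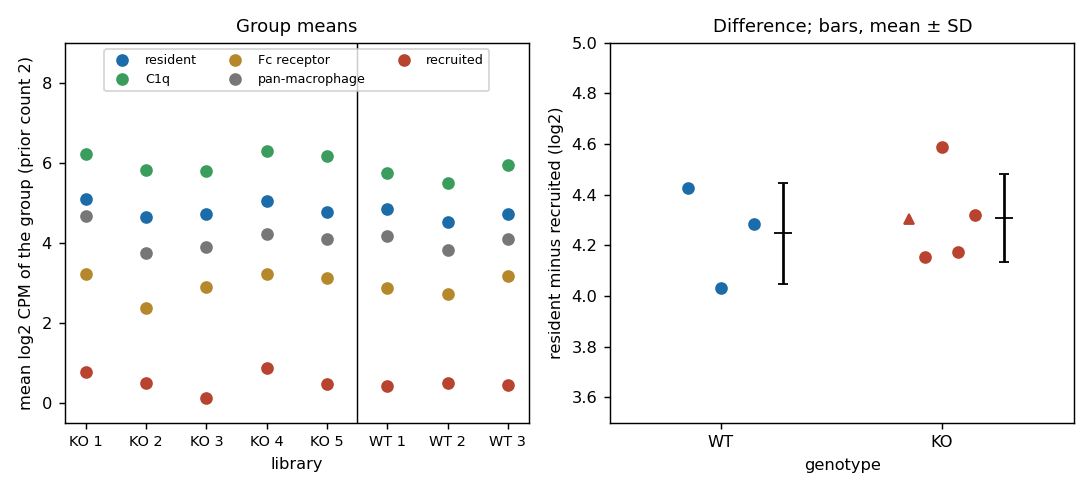
Left, mean log2 CPM of each member group in each knockout (KO) and wild-type (WT) library. Right, the mean of resident genes minus that of recruited genes (log2) in each library, with group mean ± SD as black bars and knockout library 1 as a triangle. The groups overlap, with knockout values from 4.15 to 4.59 and wild-type values from 4.03 to 4.43.

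Clec4f and Csf1r were each set against the other tested members across the 8 libraries on log2 CPM, 67 relations in all, with exact two-sided permutation p-values adjusted over the 67. These genes and this comparison were chosen after the values had been seen, so the relations describe these libraries. Clec4f had its highest r with C1qa (Pearson r = 0.94, exact permutation p = 0.00104, adjusted 0.0229, Spearman rho = 0.90, p = 0.00456, adjusted 0.0510) and with Lyz2 (r = 0.93, exact permutation p = 0.00136, adjusted 0.0229, rho = 0.95, p = 0.00114, adjusted 0.0382). Leaving out knockout library 5 and wild-type library 2, the libraries farthest from the median of Clec4f, gave r = 0.92 with C1qa and r = 0.86 with Lyz2. Ptprc followed (r = 0.89, adjusted exact permutation p = 0.0465, rho = 0.98, adjusted 0.0266, r = 0.82 without those libraries). Cd5l passed by r and not by rho (r = 0.88, adjusted exact permutation p = 0.0465, rho = 0.83, adjusted 0.129, r = 0.68 without those libraries).

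Csf1r had its highest r with Cd68 (r = 0.96, exact permutation p = 2.232e-04, adjusted 0.00748, rho = 0.93, p = 0.00223, adjusted 0.0499) and with Laptm5 (r = 0.96, exact permutation p = 1.488e-04, adjusted 0.00748, rho = 0.90, p = 0.00456, adjusted 0.0510). Leaving out knockout libraries 1 and 2, the farthest from the median of Csf1r, gave r = 0.95 with Cd68 and 0.91 with Laptm5. Cybb had r = 0.89 (adjusted exact permutation p = 0.0409), rho = 0.69 (adjusted 0.245) and r = 0.75 without those libraries. Between Csf1r and Clec4f themselves r was -0.05 (exact permutation p = 0.907, adjusted 0.950) and rho -0.12.

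In all, 7 of 67 relations passed an adjusted p of 0.05 by Pearson's r and 3 by Spearman's rho. These values include the difference between genotypes. With each genotype's mean removed and libraries permuted within genotype (720 permutations), r was 0.88 for Clec4f with C1qa, 0.87 with Lyz2, 0.84 with Ptprc and 0.86 with Cd5l. It was 0.96 for Csf1r with Cd68, 0.96 with Laptm5 and 0.91 with Cybb. By that test 0 of the 67 relations passed, with adjusted exact permutation p-values of 0.0931 for Cd68 and Laptm5 and 0.161 for the other 5. The smallest exact permutation p that 720 permutations can give is 0.00139, which Csf1r with Cd68 reached. A single relation at that p adjusts to 0.0931 over the 67, so 1 relation alone could not pass. The absence of passing relations therefore does not show that they depend on genotype. Points of these relations share library depth and scaling.

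Other genes of the same biology, from lists drawn up by known function, gave 0 calls by edgeR over all 8 libraries. Of 16 further Kupffer cell genes, all tested, 10 were positive with a median log2 fold change of 0.15. Adgre1, which encodes the macrophage antigen F4/80, was at 27.6 ± 6.63 against 23.0 ± 5.61 CPM (log2 fold change 0.26, SE 0.23, edgeR adjusted p = 0.598). Cd209f, a C-type lectin, was at 1.70 ± 0.458 against 0.881 ± 0.353 CPM (0.95, SE 0.36, edgeR adjusted p = 0.336), and Pltp, a phospholipid transfer protein also made by hepatocytes, at 40.4 ± 9.09 against 52.2 ± 12.7 CPM. Of 15 tested genes of the Kupffer cell niche and its regulators, 7 were positive with a median of -0.08. Maf, a transcription factor of tissue macrophages and also of endothelium, was at 52.3 ± 14.3 against 31.8 ± 5.57 CPM (0.72, SE 0.23, edgeR adjusted p = 0.327). All 5 knockout libraries lay above all wild-type libraries, but only just, with knockout library 3 at 38.186 CPM and wild-type library 3 at 38.165 CPM. S100a6 and S100a9, given below, also had genotypes that did not overlap, as did 6.65% of all tested genes. Tgfb1, a growth factor that helps set Kupffer cell identity, was at 7.04 ± 1.74 against 10.01 ± 1.01 CPM (-0.53, SE 0.20, edgeR adjusted p = 0.338).

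Among 16 tested genes that signal below Fc receptors or form the NADPH oxidase, 8 were positive with a median of -0.0025. Fcgr2b, the inhibitory Fc receptor and in liver largely endothelial, was at 29.9 ± 2.80 against 36.5 ± 6.25 CPM, and Cyba, an oxidase subunit, at 10.5 ± 1.73 against 8.13 ± 2.14 CPM. Summed over 17 monocyte genes, the level was 124 to 203 CPM in knockout and 103 to 118 CPM in wild-type libraries. Spp1 alone was at 49.7 to 113 CPM in knockout and 42.1 to 53.3 CPM in wild-type libraries. The sum was not tested. Of 9 tested monocyte genes, 8 were positive with a median of 0.40. They were led by S100a6, a calcium-binding protein also found in biliary and mesothelial cells, at 4.97 ± 2.57 against 1.605 ± 0.499 CPM (1.65, SE 0.48, edgeR adjusted p = 0.301), and by Spp1, which encodes osteopontin and is also biliary, at 82.4 ± 24.0 against 48.9 ± 5.97 CPM (0.75, SE 0.24, edgeR adjusted p = 0.327).

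Markers of other cells differed between libraries beside these values. Summed over 10 neutrophil genes, 1 of them with fewer than 10 reads over all libraries, the level was 12.9 to 20.8 CPM in knockout and 7.28 to 15.03 CPM in wild-type libraries. All 5 tested members were positive, and S100a9 was at 5.83 ± 1.51 against 2.54 ± 0.925 CPM (1.22, SE 0.30, edgeR adjusted p = 0.254). DESeq2's Wald test over all libraries called S100a9 higher (adjusted p = 0.0340), the only call it made in the lists outside the members. Summed over 7 sinusoidal endothelial genes, the level was 201 to 268 CPM in knockout and 285 to 364 CPM in wild-type libraries, and all 7 were negative (median -0.42), with Kdr at 31.5 ± 6.68 against 53.3 ± 15.02 CPM (edgeR adjusted p = 0.301). Summed over 8 erythroid genes, the level was 84.5 to 217 CPM in knockout and 77.7 to 84.6 CPM in wild-type libraries, and all 7 tested were positive (median 0.95). Sums for B and plasma cells (at most 11.2 CPM), T and NK cells (at most 8.90 CPM) and dendritic cells (at most 8.41 CPM) were low in every library, and 6 stellate cell genes summed to 240 to 364 CPM in knockout and 349 to 379 CPM in wild-type libraries. All 6 stellate cell genes were negative (median -0.23). No matched gene of these cell types was at 0 in all libraries. Whether these shifts bear on the macrophage values was not tested.

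Gene length moved with the fitted values. Across the 35 tested members, the Spearman correlation of log2 fold change with gene length was -0.33, and across all 12338 tested genes it was -0.35, as a description over genes, which are not independent replicates. Of the 19 members shorter than 1500 bases, 16 had positive log2 fold changes (median 0.20). Among all tested genes of that length, 1682 of 2087 were positive (median 0.26). The members with the smallest p-values include the short genes Tyrobp (586 bases), Aif1 (875 bases) and C1qa (1082 bases). When the length trend of each library was taken out, 19 of 35 members were positive, beside 48% of all genes, the median was 0.07, and log2 fold changes were 0.10 for Tyrobp, 0.25 for Aif1 and 0.23 for C1qa. Clec4f, at 2400 bases, had a log2 fold change of 0.43 (edgeR adjusted p = 0.408) in that fit. The Fc receptor median turned from 0.10 to -0.25. With knockout library 1 left out as well, 14 of 36 members were positive, beside 46.9% of all genes, and the median was -0.13. Values of the other lists above are as fitted, with the length trend left in. S100a9 (488 bases) and S100a6 (719 bases) are short genes with positive values. Kdr (5464 bases) is a long gene with a negative value, while Maf (3642 bases) is long and positive.

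**Figure D5:**
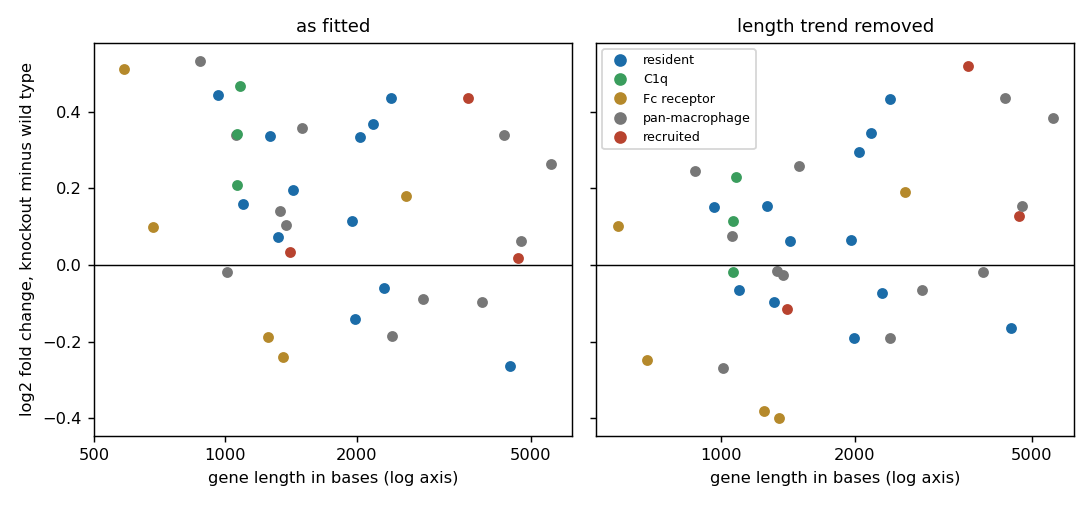
Log2 fold change (knockout minus wild type) of the 35 tested members against gene length in bases on a log axis, as fitted (left) and with the length trend of each library taken out (right), coloured by role. The short genes Tyrobp, Aif1 and C1qa lie near the top on the left and between 0.10 and 0.25 on the right.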

How the data were processed

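Liver RNA of 5 knockout and 3 wild-type libraries was analysed, grouped by the sample labels. Column-purified total RNA went into Illumina libraries, per the labels. The sources used here name no aligner, counting tool, genome build, annotation or strandedness.

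Per the file headers, the authors deposited, gene by gene, the uniquely mapped read count of every library, the RPKM (reads scaled by gene length in kilobases and by mega-reads) and the percent of gene length covered. Reads were summed over 113 identifiers that stand on 229 of 19464 rows, and a dash was read as 0. The deposited RPKM equalled a recalculation from counts, and was used to order levels. The deposited coverage percent gave 1 value per library, the median over genes with 1 to 2 reads per 100 bases (42.2% to 46.3%), used as a covariate in 1 alternative.

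In R 4.3.3, genes were filtered by edgeR 4.0.16 (filterByExpr), scaled by TMM and tested by the quasi-likelihood F test over 12338 genes, with Benjamini-Hochberg adjustment. SE is the log2 fold change over the square root of F. DESeq2 1.42.0 was an alternative. Scripts were tested on simulated data. Intervals are 95%. Drawing used matplotlib 3.10.9 in Python 3.11.15. Members, lists and the naming rule were chosen with earlier results of these data known. The rule gave full values for 9 fixed members and up to 3 members per group with the smallest p, and, from other lists, up to 2 genes. Values of Cd14, Cd163 and Gpnmb in single libraries were added after being seen. Alternatives left out each library, changed the scaling, filter or tool, took out a length trend (lowess per library) or used the replicate number as a block. Same-numbered libraries did not deviate together (r = 0.12, -0.25 and -0.01 for numbers 1 to 3), so the numbers were not taken as pairs. List genes matched by symbol or RefSeq synonym in 161 of 162 entries.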

Additional observations from a re-analysis of the deposited data

Results flagged for a closer look

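In 4 of the 38 members the level in knockout library 1 stood far above the other 4 knockout libraries, by more than 0.71 of the whole range of the group. Cd163 was at 19.4 CPM there and at 8.79 to 11.0 CPM in the others. Cybb was at 37.4 CPM against 14.8 to 20.7 CPM. Cd14 was at 11.7 CPM against 1.41 to 2.90 CPM. Gpnmb was at 2.35 CPM, from 12 reads, against 0.115 to 0.424 CPM. Chance sets apart about 1 in 20 such groups when they are independent. The 39 groups looked at share the same knockout libraries, so that rate gives no expected number here. They included the resident minus recruited difference, which was not set apart. This library was also the shallowest, with the lowest hepatocyte sum, and the only one with Y-linked reads above 4 of any gene. The part of these features in the 4 values was not tested.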

How the results depend on the processing

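In all 17 alternatives 0 members were called, and the smallest adjusted p of any member ran from 0.0976 (C1qa, DESeq2 without knockout library 1) to 0.970 (replicate block). Calls over all genes depended on single libraries and on the tool. Against 28, they numbered 13 to 114 with 1 library left out (114 leaving out knockout library 1, 93 leaving out wild-type library 3, 15 or 13 leaving out wild-type library 1 or 2), 134 by DESeq2, 1057 by DESeq2 without knockout library 1 and 73 with the length trend removed and without that library. With the replicate number as a block 8 genes were called, and 15 from the same 6 libraries with no block. With the length trend removed and knockout library 1 left out, group medians moved to -0.038 for resident, 0.0017 for C1q, -0.32 for Fc receptor and -0.20 for pan-macrophage genes, and with the trend alone the Fc receptor median was -0.25. The cause was not tested. With 1 library left out, medians ran from 0.07 to 0.28 (resident), 0.21 to 0.48 (C1q), -0.10 to 0.27 (Fc receptor), -0.14 to 0.24 (pan-macrophage) and -0.07 to 0.19 (recruited), and the resident minus recruited difference between genotypes from -0.05 to 0.15.

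Turned signs are listed for the tested members whose values were given in every library. They turned, in every case without a call in either fit, as follows. With the length trend removed, C1qc was at -0.017 and Lgals3 at -0.11. In that fit members outside this list turned as well, Folr2 to -0.066, Fcna to -0.098, Fcer1g to -0.25, Ctss to -0.027 and Spi1 to -0.015. Turns of such members in the remaining fits are not listed here. With the trend and knockout library 1 left out, Vsig4 was at -0.10, C1qc at -0.17, Tyrobp at -0.041, Lgals3 at -0.18 and Itgam at -0.0071. With the replicate block, Ccr2 was at -0.11, Lgals3 at -0.13 and Itgam at -0.090, and with those 6 libraries and no block at -0.13, -0.12 and -0.12. With the coverage covariate, Csf1r was at 0.091 and Lgals3 at -0.056. By DESeq2 without knockout library 1, Lgals3 was at -0.0020 and Itgam at -0.14. With 1 library left out, Csf1r ran from -0.33 to 0.14, Fcgr1 from -0.0013 to 0.31, Lgals3 from -0.062 to 0.19 and Itgam from -0.23 to 0.22. The fits without knockout library 1 by DESeq2 or with the trend removed, the coverage covariate, the 6 libraries with no block and the recruited list held to tested members were chosen after seeing the data. In the lists outside the members, DESeq2 without knockout library 1 called genes in 8 lists, against 1 list over all libraries. Over all genes it called 1057 of 12280 without that library, against 134 of 13019 over all libraries. The count of lists is therefore not a result about these cell types.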
